A study of Rattus norvegicus with 84 samples.

Results

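Messenger RNA carried by brain-derived extracellular vesicles (EVs) was compared between rats 4 days after ischemic stroke and healthy rats. The 6 libraries were the columns of the deposited mRNA count table labelled as brain, control, 4 days poststroke (3 rats) and brain, healthy (3 rats), out of 84 samples in all and 21 brain EV mRNA libraries. The study followed EV RNA in brain and blood of rats given human neural stem cells or saline after stroke. The control group consisted of male wild-type Sprague-Dawley rats aged 8 to 12 weeks whose right middle cerebral artery was blocked for 90 min and then reopened, and which received saline into the carotid artery 3 days after the stroke, 1 day before the tissue was taken. The healthy group consisted of adult male wild-type Sprague-Dawley rats for which no surgery is described and whose age in weeks is not stated in the sources used here; no sham-operated group was included, so stroke, surgery, anesthesia and saline injection cannot be told apart here. EVs were isolated from a small piece of the ipsilateral hemisphere by enzymatic dissociation, centrifugation, filtration and ultracentrifugation.

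EVs are membrane-bound particles that cells release and that enclose part of the RNA of the cell they come from, so vesicles from a tissue hold a mixture from its neurons, glia, vessels and immune cells. After a stroke, microglia and blood-derived macrophages clear dying tissue, astrocytes around the lesion become reactive, and neurons in the core are lost. In such bulk material, fewer cells of a type, fewer vesicles from it and less RNA per vesicle cannot be told apart.

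The libraries of the control group held 24159209, 14792310 and 20725985 counts, and those of the healthy group 19730248, 21496858 and 28068838. Most counts fell on transcripts without an annotation, and the largest such row alone took 17.8% to 39.1% of a library. Annotated genes received 25.3%, 23.2% and 22.0% of counts in the control group and 7.11%, 20.9% and 13.6% in the healthy group. This share was higher in all 3 control libraries than in all 3 healthy ones (exact two-sided permutation test, p = 0.1, the smallest p that 3 against 3 allows). Healthy replicate 1 stood apart with 1403190 annotated counts and 10109 genes detected, against 3428151 to 6105035 counts and 12631 to 14099 genes in the other libraries. The part of these differences in the results below was not tested. The vesicle RNA carried brain markers in every library: the neuronal list summed to 12224, 14456 and 18121 CPM (counts scaled to a common library size after TMM) in the control group and to 17302, 21595 and 18836 in the healthy group. The tested liver genes (2 of 11 listed) summed to at most 9.34 CPM and the tested skeletal muscle genes (5 of 14) to at most 54.0 CPM in any library. Tested red cell and platelet genes (8 of 13) summed to 198.5, 250.7 and 112.8 CPM in the control group and 239.3, 206.7 and 492.9 CPM in the healthy group.

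In EVs from the poststroke brain, some genes of phagocytes, reactive astrocytes and ribosomal proteins took a larger share of the annotated mRNA than in EVs from the healthy brain, and several synaptic genes a smaller one. Of 14515 annotated genes tested, 116 were higher (0.799%) and 28 were lower (0.193%) in the control group, at an adjusted p under 0.05 and a change above 1.5-fold in edgeR's quasi-likelihood test with Benjamini-Hochberg adjustment. The median change of the genes called higher was 6.35-fold and that of the genes called lower 3.18-fold. In 15 of the genes called higher no healthy library held a count. At an unadjusted p under 0.05, 1233 genes were higher (8.49%) and 930 lower (6.41%). Groups did not overlap for 2014 genes in the higher direction (13.9%) and 1503 in the lower direction (10.4%).

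These counts depended strongly on single libraries. Without healthy replicate 1, 1 gene was called higher and 0 lower; the gene that remained was Gpd1. Without control replicate 1, 3 were higher and 0 lower, and without healthy replicate 3, 8 were higher and 2 lower. Without healthy replicate 2, 36 were higher and 10 lower, without control replicate 2, 55 and 3, and without control replicate 3, 88 and 15. In those 6 fits the unadjusted p was under 0.05 for 746 to 953 genes in the lower direction. DESeq2 called 595 higher and 244 lower with all libraries. Of the 144 called genes, every one but Gpd1 was therefore lost on leaving out at least 1 library, always including healthy replicate 1.

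The genes called lower also depended on the scaling. Scaling to the total of all rows, unannotated ones included, gave a median change of all genes of 0.73 on the log2 scale and called 99 genes higher and 0 lower, with 416 genes lower at an unadjusted p under 0.05. In limma on log2(FPKM + 1), with a median of 0.28, 488 genes were higher and 2 lower. Changes below are relative to the trimmed mean (TMM) scaling over annotated genes, in which the median change of all genes was 0.05. They say how a gene's share of the annotated mRNA differed, not its amount per vesicle.

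Gpd1, the cytosolic glycerol-3-phosphate dehydrogenase, had the smallest p of all genes. It stood at 757, 451 and 598 CPM in the control group and at 25.2, 95.2 and 36.3 CPM in the healthy group. All control rats lay far above all healthy rats, and the change was 11.4-fold (log2 3.51, SE 0.47, adjusted p = 0.00125 by edgeR). It was called in all 6 fits that left out 1 library, with an adjusted p of at most 0.049 and a log2 change of 3.17 to 4.24.

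**Figure D1:**
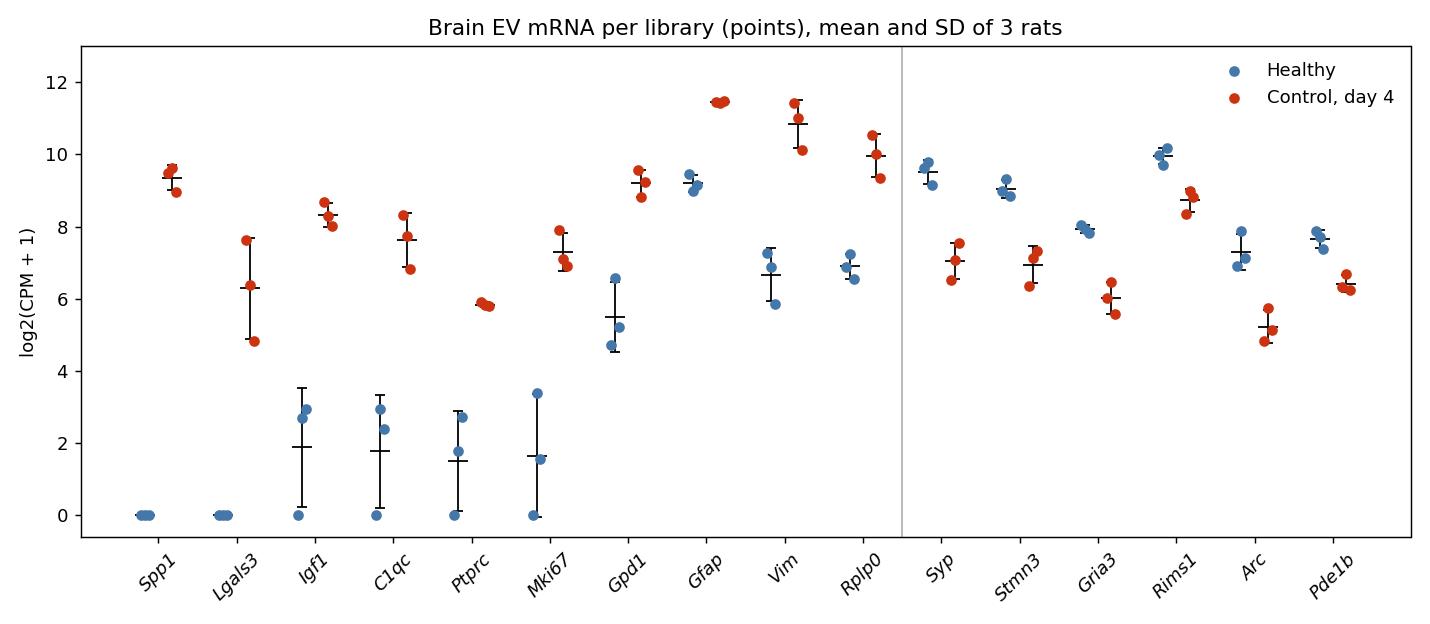
Level of 10 genes called higher (left of the line) and 6 called lower (right) in each brain EV library, as log2(CPM + 1); points are rats, bars the mean and SD of 3. Spp1 and Lgals3 have no count in any healthy library, and the groups do not overlap for any gene shown.

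Genes of activated phagocytes held 5 calls by edgeR, more than any other of the 32 lists examined in that fit. Histone genes had no list, and 6 of them were called. The lead of the phagocyte list did not hold under some alternatives, as given below with the ribosomal protein genes. All 19 tested members of that list had a higher level in the control group, 5 of them with no healthy count, and 5 were called, where 0.799% of all genes were called higher; the median change was 4.04 on the log2 scale, or 4.26 with genes at 0 in 1 group set to their bound and genes of 1 to 3 counts in 1 group set to the ratio of summed counts (the middle gene, Ch25h, has 1 healthy count), against 0.05 over all genes. The median of 4.04 was 2.02 in limma on log2(FPKM + 1), 3.27 without control replicate 1, 5.55 without healthy replicate 3 and 6.28 without healthy replicate 2. Spp1, which encodes the secreted glycoprotein osteopontin, was at 719, 788 and 495 CPM in the control group and had no count in the 3 healthy libraries. The groups were fully apart, and Spp1 was at least 2105-fold higher against a floor of 3 counts over the healthy group (adjusted p = 0.020 by edgeR). Lgals3, which encodes galectin-3, varied more: 198, 82.8 and 27.7 CPM in the control group against no count in the healthy group, at least 324-fold higher (adjusted p = 0.023). Igf1, a growth factor gene, was at 410, 311 and 256 CPM against 0, 5.54 and 6.75 CPM (log2 6.13, SE 1.21, adjusted p = 0.020). Apoe, the lipid carrier and the most abundant member by FPKM, was at 7559, 4615 and 3494 CPM against 1729, 2266 and 1591 CPM; its groups did not overlap but it was not called (adjusted p = 0.12). The summed level of the list was 10520, 7044 and 5036 CPM in the control group and 1821, 2410 and 1741 CPM in the healthy group. None of its members was called without control replicate 1, healthy replicate 1 or healthy replicate 3. Such bounds cover counting error only, and without molecular identifiers reads need not be separate molecules.

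Complement and Fc receptor genes lay in the same direction, with 17 of 18 tested members higher (5 of the 18 with no healthy count), 2 called (0.799% of all genes) and a median of 2.91 (3.74, 3.99 and 3.56 without healthy replicates 1, 2 and 3, and 0.54 in limma on log2(FPKM + 1)). C1qc, a chain of the C1q protein that starts the classical complement pathway, was at 319, 212 and 113 CPM against 0, 6.64 and 4.22 CPM (log2 5.70, SE 0.99, adjusted p = 0.011 by edgeR; 5.26 to 6.32 with 1 library left out). C1qb, another chain of that protein, was at 224, 61.0 and 104 CPM against 9.34, 5.76 and 6.19 CPM (adjusted p = 0.027). Each control rat was above each healthy rat for both chains.

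Markers of resting microglia were higher in 13 of 13 tested members, 2 of them called (0.799% of all genes), with a median of 2.19 (0.59 in limma on log2(FPKM + 1)). Ptprc, the leukocyte phosphatase CD45, was even among the control rats at 59.1, 55.4 and 54.4 CPM, against 0, 2.44 and 5.63 CPM in the healthy group (log2 4.28, SE 0.84, adjusted p = 0.014 by edgeR; 3.77 to 5.21 with 1 library left out). Csf1r, the receptor that microglia need to survive, was at 166, 87.8 and 113 CPM against 25.9, 17.9 and 36.3 CPM (adjusted p = 0.044). Outside these lists, Blnk, an adaptor of immune receptors, was at 38.9, 40.2 and 50.9 CPM in the control group with no healthy count, at least 137-fold higher (adjusted p = 0.011). Csf2rb, the shared receptor chain for GM-CSF and related cytokines, had no healthy count either and reached at least 103-fold, and Pld4 at least 108-fold. The transcription factor gene Runx1, the integrin gene Itgb2, Plau, Rasal3, Parvg and Hlx were also called with no healthy count, at between 51.1-fold and 82.3-fold or more. Capg, an actin-capping protein gene of macrophages, was at 140, 93.5 and 46.3 CPM against 0, 1.11 and 0 CPM (adjusted p = 0.012). Cebpa, a myeloid transcription factor gene, was at 294, 108 and 144 CPM against 4.31, 14.4 and 11.5 CPM (log2 4.11, SE 0.71, adjusted p = 0.011).

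In the lysosome list, 18 of 20 members were higher (1 of the 20 with no healthy count) and 3 were called (0.799% of all genes), with a median of 1.67. Lgmn, which encodes the protease legumain, was at 206, 166 and 158 CPM against 39.5, 33.4 and 35.4 CPM (log2 2.29, SE 0.43, adjusted p = 0.013 by edgeR). The cathepsin genes Ctsb and Ctsd had log2 changes of 2.50 (adjusted p = 0.027) and 3.01 (adjusted p = 0.044). Psap, the most abundant member by FPKM averaged over both groups, overlapped between groups, with 588, 476 and 321 CPM against 274, 347 and 255 CPM. In the control group alone Ctsb (9.97 FPKM) and Ctsd (9.20 FPKM) lay above Psap (8.81 FPKM).

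Blood-borne and lymphoid markers were sparse. Of 8 tested genes in a list of neutrophil, monocyte and macrophage markers all 8 were higher, 3 of them with no healthy count, and 0 were called by edgeR (5 at an unadjusted p under 0.05, where 8.49% of all genes were higher); 15 of 20 in the table had no healthy count and 9 had none in either group. Their median was 4.62, or 3.51 with genes of 0 to 3 counts in 1 group set as above, and it was 5.85 without healthy replicate 2, 3.87 without control replicate 2 and 0.57 in limma on log2(FPKM + 1). The neutrophil granule genes S100a8, Mpo, Elane, Prtn3, Camp and Ngp had no count in either group. Other neutrophil genes of the list had counts in the control group: S100a9 30, Lcn2 76, Cxcr2 40 and Mmp8 11, each against 0 in the healthy group. Csf3r had 367 against 21. The list summed to 321, 186 and 221 CPM in the control group and 17.2, 72.2 and 39.7 CPM in the healthy group. Cd163, a macrophage scavenger receptor gene, was at 66.1, 36.9 and 36.6 CPM against 0, 0 and 1.69 CPM (adjusted p = 0.11). Of 14 lymphocyte genes 11 had no count in any of the 6 libraries, and the list summed to 46.6, 22.0 and 46.6 CPM against 0, 17.5 and 9.57 CPM. Of 21 cytokine and chemokine genes with a row, 18 had no healthy count and 8 were tested. Of these 8, 5 had no healthy count and 1 was called (0.799% of all genes). The called member was Tgfb1, at 54.0, 58.4 and 30.1 CPM against 0, 2.21 and 2.53 CPM (log2 4.76, SE 1.11, adjusted p = 0.036 by edgeR). Neither the antigen presentation list (4 of 11 higher and 1 lower at an unadjusted p under 0.05) nor the interferon list (4 of 17 higher and 2 lower) had a member called by edgeR. At that limit 8.49% of all genes were higher and 6.41% lower. No healthy count was found for 4 of the 11 tested antigen presentation genes and 1 of the 17 tested interferon genes. DESeq2 called 2 members of the antigen presentation list and 3 of the interferon list. B2m, the class I light chain, was at 217, 192 and 97.4 CPM against 34.5, 49.0 and 41.4 CPM (adjusted p = 0.10 by edgeR), and Irf8 had an adjusted p of 0.067.

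Reactive astrocyte genes were mostly higher with few calls, while astrocyte identity genes lay near the median of all genes. The reactive list had 16 of 17 tested members higher (5 of the 17 with no healthy count), 3 called (0.799% of all genes), and a median of 4.04 (3.66 with genes of 0 to 3 counts in 1 group set as above, 6.68 without healthy replicate 2 and 1.11 in limma on log2(FPKM + 1)). Gfap, the astrocyte intermediate filament, was at 2812, 2715 and 2865 CPM against 695, 504 and 571 CPM. The control rats were nearly identical, and the change was 4.74-fold (log2 2.25, SE 0.35, adjusted p = 0.0091 by edgeR); its call was lost without healthy replicate 1, where the log2 change was 2.35 (adjusted p = 0.071). Vim, which encodes vimentin, was at 2747, 2059 and 1114 CPM against 152, 118 and 56.6 CPM (log2 4.19, SE 0.74, adjusted p = 0.013). The small heat shock protein gene Hspb1 had no healthy count and was at least 91.0-fold higher. The identity list of transporters, channels and enzymes had a median of 0.33 over 15 members, of which 1 was called higher (0.799% of all genes). It was Glul, the glutamine synthetase gene, at 1415, 1157 and 1819 CPM against 444, 694 and 299 CPM (log2 1.61, SE 0.30, adjusted p = 0.013 by edgeR).

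Ribosomal protein genes were higher in 81 of 83 tested members with a median of 2.19, and 2 of the 83 had no healthy count. By edgeR 3 were called (0.799% of all genes were called higher), and 56 were higher without overlap between groups (13.9% of all genes were). DESeq2 called 21 of them, against 13 of the activated phagocyte list. These counts were 45 against 12 in the fit of only the 2 groups and 19 against 7 in limma on log2(FPKM + 1). The sum of the ribosomal protein genes was 21363, 14168 and 8389 CPM in the control group and 3090, 4045 and 3342 CPM in the healthy group. Every control library lay above every healthy library, and the control libraries differed among themselves by more than the healthy ones. Rplp0, a protein of the ribosomal stalk, was at 1490, 1022 and 654 CPM against 118, 151 and 93.1 CPM (log2 3.13, SE 0.56, adjusted p = 0.012 by edgeR). Rpl4 and Rpl13 had log2 changes of 1.85 (adjusted p = 0.020) and 2.33 (adjusted p = 0.038; 1.93 to 3.01 with 1 library left out). Ribosomal protein genes have many near-identical processed copies, so the count of a single one is uncertain. The 69 tested respiratory chain genes encoded in the nucleus had a median of 0.09, with 37 higher, 31 lower and 0 called by edgeR (1 higher and 2 lower at an unadjusted p under 0.05).

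Of 17 tested proliferation genes 16 were higher, 3 of the 17 had no healthy count and 1 was called (0.799% of all genes). The median was 2.82 (4.77 and 3.95 without healthy replicates 2 and 3, and 0.39 in limma on log2(FPKM + 1)). Mki67, a marker of dividing cells, was at 237, 137 and 118 CPM against 0, 9.52 and 1.97 CPM (log2 5.26, SE 1.15, adjusted p = 0.027 by edgeR; 4.79 to 6.98 with 1 library left out). Hist1h1d, a linker histone gene, was at 454, 310 and 179 CPM against 12.2, 54.9 and 26.7 CPM (adjusted p = 0.011). Its count is uncertain because histone genes have close copies. Samd1, which encodes a chromatin protein that binds unmethylated CpG-rich DNA, was at 713, 577 and 588 CPM against 186, 192 and 173 CPM (log2 1.77, SE 0.29, adjusted p = 0.011).

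Matrix and iron genes were mostly higher with few calls, and chaperone genes lay on both sides. In the extracellular matrix list 21 of 22 members were higher (median 2.18, and 1.23 in limma on log2(FPKM + 1)), and 3 of the 22 had no healthy count. By edgeR 1 was called (0.799% of all genes), and 10 were higher at an unadjusted p under 0.05 (8.49% of all genes). The called gene was Fn1, the fibronectin gene, at 439, 405 and 140 CPM against 0, 45.4 and 43.3 CPM (adjusted p = 0.034 by edgeR). In the heme, iron and antioxidant list 16 of 18 were higher (median 2.59, and 1.72 without control replicate 1, 3.34 without healthy replicate 2 and 1.11 in limma on FPKM). By edgeR 0 were called, with 11 higher at an unadjusted p under 0.05 (8.49% of all genes). Of the 18, 1 had no healthy count. DESeq2 called 7 and the fit of only the 2 groups 6. Fth1, the ferritin heavy chain gene, was at 2958, 2483 and 1261 CPM against 597, 517 and 596 CPM (adjusted p = 0.077), and Hmox1, the heme oxygenase gene, at 78.6, 61.0 and 35.7 CPM against 3.59, 2.44 and 0 CPM (adjusted p = 0.058). The S100 and annexin list had 16 of 16 members higher, 3 of them with no healthy count (median 2.44, and 1.83 without control replicate 1, 3.15 without healthy replicate 2 and 1.07 in limma on FPKM). Of these members 1 was called (0.799% of all genes). It was S100a11, at 69.0, 42.6 and 19.5 CPM against no healthy count, at least 138-fold higher (adjusted p = 0.031 by edgeR). The chaperone list had 9 members higher and 7 lower with a median of 0.05, which gives no direction: it was -0.04 with upper-quartile factors, 0.88 on library totals, and -0.27 without control replicate 1 and -0.02, -0.08 and -0.18 without healthy replicates 1, 2 and 3. Within it Hspa1a, the inducible HSP70 gene, was at 299, 114 and 129 CPM against 23.7, 11.1 and 16.9 CPM (log2 3.41, SE 0.65, adjusted p = 0.013), and its close copy makes that count uncertain, while the constitutive Hspa8 at 562, 194 and 134 CPM against 175, 229 and 213 CPM overlapped between groups. In the vascular list 14 of 18 were higher (median 1.13, and 0.22 without control replicate 1 and 0.35 in limma on FPKM). By edgeR 0 were called, with 2 higher at an unadjusted p under 0.05, near the 8.49% of all genes. DESeq2 called 1 and limma on log2(FPKM + 1) called 3.

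**Figure D2:**
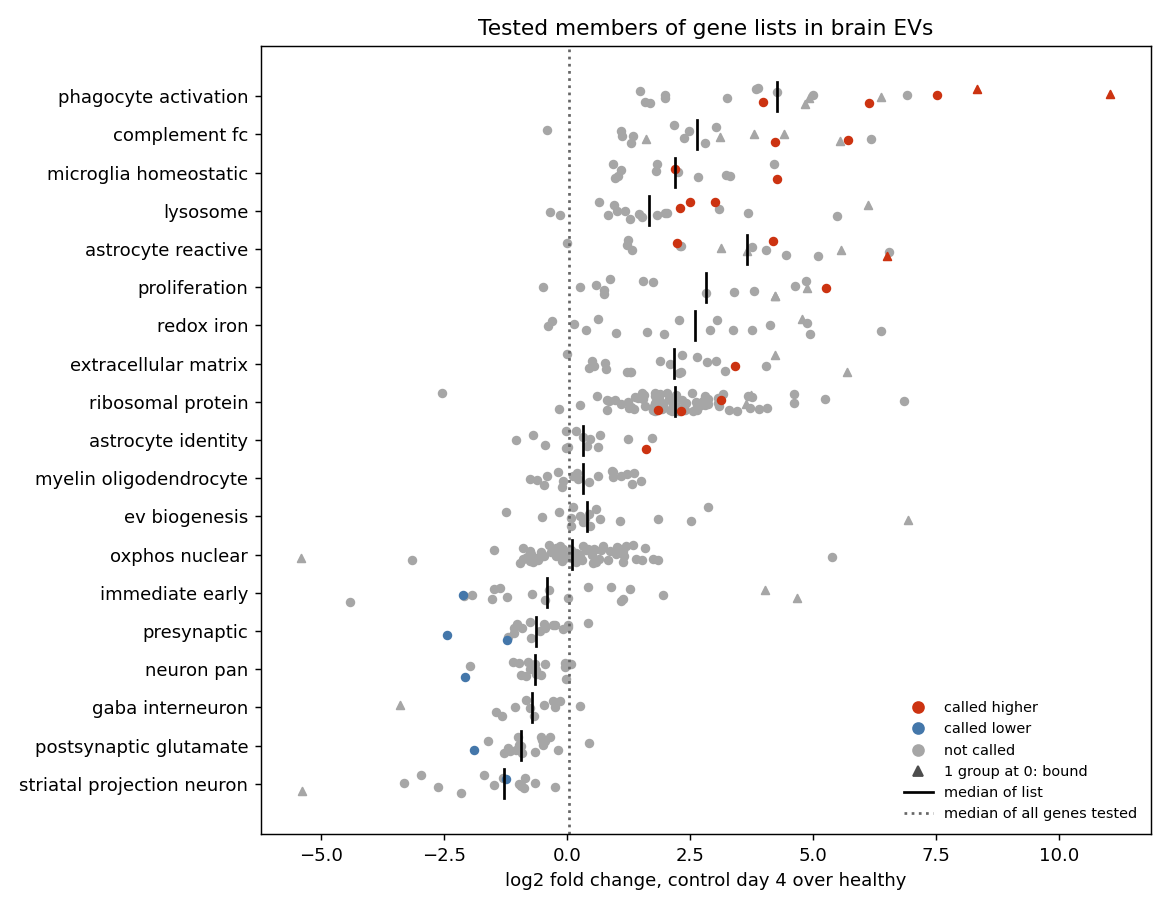
Log2 fold change of each tested member of 19 gene lists, control group at day 4 over healthy group. Red points were called higher, blue points lower and gray points neither; triangles are genes with no count in 1 group, drawn at their bound, and genes of 1 to 3 counts in 1 group are drawn at the ratio of summed counts. Black lines are medians of the points drawn, from 4.26 for phagocyte activation to -1.27 for striatal projection neurons, and the dotted line is the median of all genes.

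Genes of neurons and synapses lay below the median of all genes, with few calls. In the pan-neuronal, presynaptic, postsynaptic glutamate, striatal projection neuron and interneuron lists 1, 2, 1, 1 and 0 members were called lower (0.193% of all genes), and 8, 8, 15, 10 and 3 were lower without overlap between groups (10.4% of all genes). Pan-neuronal genes were lower in 16 of 17 tested members (median -0.64), presynaptic genes in 15 of 18 (median -0.63), postsynaptic glutamate genes in 17 of 18 (median -0.93), striatal projection neuron genes in 16 of 16 (median -1.27) and interneuron genes in 11 of 12 (median -0.71). On library totals these medians were -0.02, 0.03, -0.12, -0.46 and 0.05, so the direction of the presynaptic and interneuron lists flipped, and in limma on log2(FPKM + 1) they were 0.15, 0.28, 0.05, -0.09 and 0.13, so all but the striatal list flipped. Relative to the median of all genes under the same scaling they were -0.75, -0.70, -0.84, -1.19 and -0.68 on library totals and -0.13, -0.01, -0.24, -0.38 and -0.16 on FPKM.

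Syp, which encodes the synaptic vesicle protein synaptophysin, was at 91.3, 132 and 186 CPM in the control group and at 786, 878 and 562 CPM in the healthy group (log2 -2.44, SE 0.47, adjusted p = 0.013 by edgeR). Stmn3, a neuronal microtubule regulator gene, was at 80.8, 140 and 160 CPM against 504, 637 and 457 CPM (log2 -2.07, SE 0.37, adjusted p = 0.011). Gria3, an AMPA receptor subunit gene, was at 63.9, 87.2 and 47.2 CPM against 264, 243 and 224 CPM (log2 -1.88, SE 0.35, adjusted p = 0.012). All healthy rats were above all control rats for these 3 genes. Rims1, an active zone scaffold gene, was at 327, 508 and 452 CPM against 1015, 833 and 1149 CPM (adjusted p = 0.045). Pde1b, a phosphodiesterase gene of striatal neurons, was at 79.3, 103 and 74.7 CPM against 234, 209 and 164 CPM (adjusted p = 0.038). Arc, a synaptic immediate early gene, was at 27.4, 52.1 and 34.0 CPM against 119, 233 and 138 CPM (adjusted p = 0.028). The immediate early list as a whole lay on both sides, with 9 members higher and 11 lower of 20, and 2 of the 20 had no healthy count.

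Other genes called lower included Camk4, a calcium-dependent kinase gene (log2 -1.89), Gpm6a, a neuronal membrane glycoprotein gene (-2.32), Lrp1b (-1.85), Adam22 (-1.80), Adam11 (-1.72), Bex2 (-1.71), Pfkp (-1.68), Dock3 (-1.66) and Trim44 (-1.82). Abca8, a lipid transporter gene, was at 39.5, 35.9 and 44.2 CPM in the healthy group with no count in the control group, at least 183-fold lower (adjusted p = 0.041 by edgeR). Igf2, a growth factor gene, was the called member of the ependymal and choroid plexus list (5 of 14 higher, 9 lower; 0.193% of all genes were called lower) at 266, 168 and 203 CPM against 1496, 640 and 1015 CPM (log2 -2.30, SE 0.51, adjusted p = 0.031). The median of that list was -0.39, and -1.36 without control replicate 1. It turned to 0.39 on library totals and 0.19 in limma on log2(FPKM + 1).

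Abundant neuronal mRNAs were not all lower. Map1a, a microtubule-associated protein gene, was at 4058, 4547 and 5918 CPM against 4721, 5473 and 4538 CPM, and Map1b at 4128, 4028 and 4981 CPM against 3515, 5132 and 4821 CPM. Both overlapped between groups, with log2 changes of -0.02 (SE 0.27) and -0.04 (SE 0.27) that turned positive, to 0.70 and 0.64, on library totals. Ddn, the dendrin gene and most abundant postsynaptic member by FPKM, was at 1411, 1980 and 1908 CPM against 1140, 1539 and 1183 CPM. Nefl, a neurofilament gene, was at 564, 971 and 1102 CPM against 1852, 1799 and 1523 CPM without being called (adjusted p = 0.19 by edgeR).

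Oligodendrocyte and vesicle genes held 0 calls by edgeR. DESeq2 called 2 members of the myelin list and 1 of the vesicle list higher. The fit of only the 2 groups called 4 and 2 higher, and limma on log2(FPKM + 1) called 4 and 0. The precursor list had 0 calls in each of these fits. The myelin list had 13 of 20 members higher with a median of 0.34 and 5 higher at an unadjusted p under 0.05 (8.49% of all genes); Mbp, the myelin basic protein gene, was at 4584, 3307 and 2733 CPM against 2004, 1749 and 1769 CPM (adjusted p = 0.24). The precursor list had a median of 0.48 over 10 genes. The vesicle list of tetraspanins, ESCRT and related genes had a median of 0.41 over 18 genes, 1 of them with no healthy count. At an unadjusted p under 0.05 2 were higher, near the 8.49% of all genes. Tsg101, an ESCRT component, was at 34.3, 31.6 and 20.6 CPM against 11.5, 28.8 and 13.2 CPM, and the tetraspanin gene Cd9 at 4.11, 8.64 and 8.01 CPM against 4.31, 10.2 and 8.72 CPM. Canx, an endoplasmic reticulum chaperone gene, was at 373, 400 and 374 CPM against 256, 388 and 334 CPM. All 3 overlapped between groups. Of the red cell genes, Hba2 at 66.1, 118 and 69.5 CPM against 126, 96.1 and 208 CPM was the most abundant by FPKM. Hbb-b1 went the other way, with 651 counts against 81 (log2 2.55, adjusted p = 0.31 by edgeR). Of the 8 tested members of the red cell and platelet list 2 were higher and 5 lower. Hemoglobin genes have close copies.

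By level per transcript length, averaged over the libraries of both groups, the leading annotated row was LOC310926. It was at 229 ± 47.6 FPKM (SD, n = 3) in the control group and 114 ± 33.1 FPKM in the healthy group. Apoe followed at 227 ± 126 against 42.6 ± 27.0 FPKM, then Ptms, a small nuclear protein gene, at 184 ± 40.1 against 53.2 ± 25.2 FPKM. Fth1, Basp1, Snrnp70, Mbp and Rplp1 came next. The order differed in the healthy group alone, where Ptms and Snrnp70 (44.1 FPKM) lay above Apoe, and Fth1 (16.9 FPKM) lay below Camk2n1 (31.5 FPKM). FPKM shares its total with the unannotated rows, and annotated genes together summed to 21531, 15726 and 13842 FPKM in the control group and 4251, 11922 and 8098 FPKM in the healthy group. FPKM levels of the groups therefore differ for genes as a whole.

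The same control group was also sampled on later days, and those libraries share the day 4 rats as their reference here. At day 10 poststroke edgeR called 0 genes against day 4 (0.0%; 902 at an unadjusted p under 0.05), and at day 31 it called 47 (0.324%). Stem cell-treated rats at day 4 differed from the control group at day 4 in 0 genes (0.0%; 1109 at an unadjusted p under 0.05). Spp1 was at 20.0, 693 and 197 CPM at day 10 and at 18.2, 28.9 and 3.15 CPM at day 31. The day 10 rats varied widely. Samd1 was at 130, 145 and 151 CPM at day 31. Hist1h1d was at 29.7, 49.2 and 24.3 CPM at day 31. Syp was at 507, 401 and 1100 CPM at day 31. Igf2 was at 2559, 2507 and 1486 CPM at day 31. Gfap was at 3003, 4120 and 2874 CPM at day 31. These genes were picked for their level in the same day 4 libraries, which favors a later change back, so only levels are given.

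**Figure D3:**
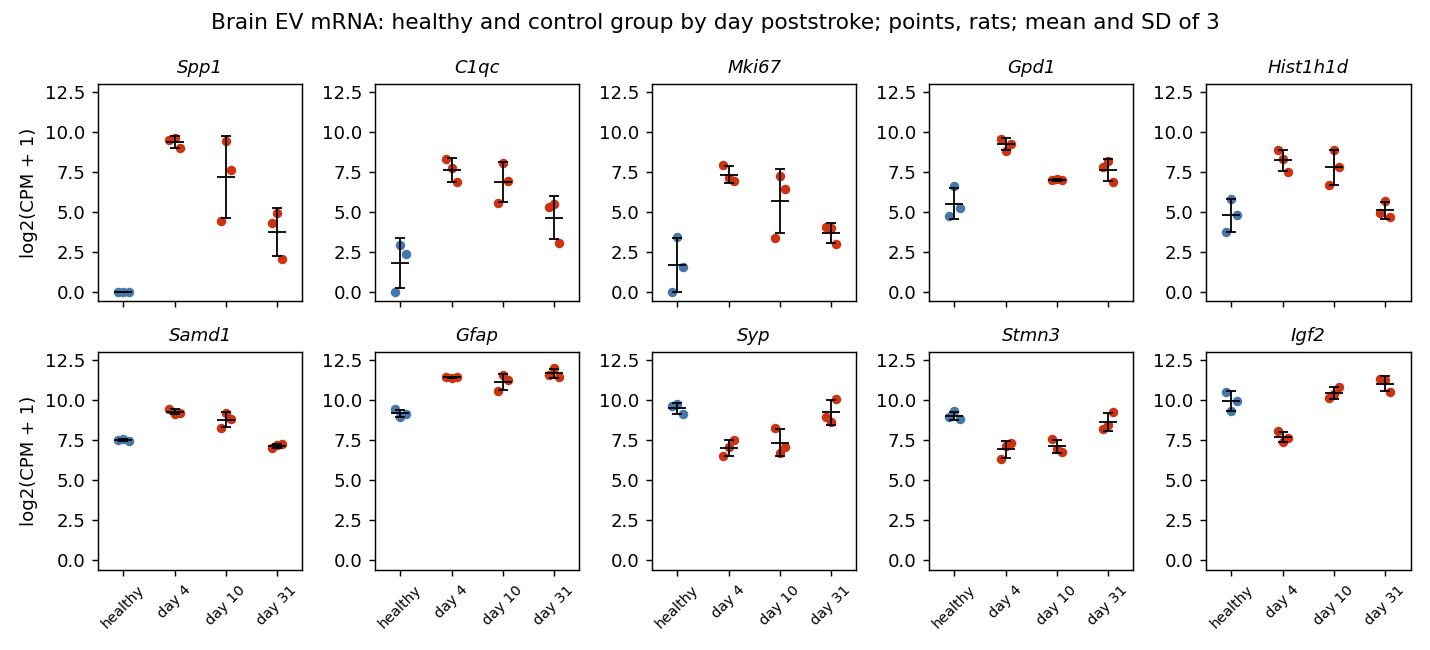
Levels of 10 genes as log2(CPM + 1) in healthy rats (blue) and in the control group at 4, 10 and 31 days poststroke (red); points are rats, bars the mean and SD of 3. Spp1, C1qc and Mki67 are high at day 4 and spread widely at day 10, and Syp is low at day 4.

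Promoters of RefSeq (GRCr8) were found by symbol for 10321 of the 14515 tested genes, 76 of those called higher and 22 of those called lower. The letters GGAAGT, the core bound by ETS factors, occurred on either strand in 26.4% of all these promoters, in 34.2% of those of genes called higher and in 13.6% of those of genes called lower. The longer GAGGAAGT, which contains that core, occurred in 2.48%, 5.26% and 0%, TGANTCA in 4.75%, 2.63% and 9.09%, TGACGTCA in 3.18%, 1.32% and 0%, an NF-kB motif of 10 letters in 1.6%, 0% and 0%, and an interferon response motif of 10 letters in 2.86%, 2.63% and 0%. The shares of called genes rest on few promoters. Promoters of the genes called in the complement and presynaptic lists are shown where the table holds them, with GGAAGT or its reverse complement in capitals, from 5′ to 3′ of the gene. They lie on the minus strand at chr5:154407778-154408077, chrX:17536400-17536699 and chr9:32692723-32693022.
C1qb: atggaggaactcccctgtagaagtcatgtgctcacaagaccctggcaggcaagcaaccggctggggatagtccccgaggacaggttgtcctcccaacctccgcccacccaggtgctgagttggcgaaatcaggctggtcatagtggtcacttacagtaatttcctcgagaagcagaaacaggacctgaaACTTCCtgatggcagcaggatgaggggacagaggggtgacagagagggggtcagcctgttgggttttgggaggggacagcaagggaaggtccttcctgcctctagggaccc
Syp: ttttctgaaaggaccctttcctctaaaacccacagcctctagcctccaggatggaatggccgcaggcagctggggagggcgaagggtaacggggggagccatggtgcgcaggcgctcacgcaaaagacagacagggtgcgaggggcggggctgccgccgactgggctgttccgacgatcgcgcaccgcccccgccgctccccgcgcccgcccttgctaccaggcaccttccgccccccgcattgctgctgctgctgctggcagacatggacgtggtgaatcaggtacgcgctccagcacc
Rims1: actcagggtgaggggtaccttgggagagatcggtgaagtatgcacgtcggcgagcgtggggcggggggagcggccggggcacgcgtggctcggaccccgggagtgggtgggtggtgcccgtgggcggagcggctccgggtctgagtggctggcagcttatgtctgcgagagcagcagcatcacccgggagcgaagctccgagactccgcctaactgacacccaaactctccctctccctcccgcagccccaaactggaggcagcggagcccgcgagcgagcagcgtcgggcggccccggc
The Syp and Rims1 windows hold no match.

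P-values of edgeR here rest on the spread between rats of the same group, pooled over the 7 brain EV groups of 3 rats. They do not rest on the 2 groups compared alone. Reads of overlapping or antisense genes cannot be told apart where counting ignored strand, and the strand setting was not given in the sources used here.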

How the data were processed

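The authors aligned paired-end reads of stranded total RNA libraries to Rnor_6.0 and deposited counts per gene and FPKM from StringTie; the counting tool was not given in the sources used here. Rows without an annotation were left out of the tests. Deposited counts of the 7 brain EV groups (3 rats each) were fitted together with edgeR 4.0.16 in R 4.3.3 (TMM scaling, its default filter on low counts, robust quasi-likelihood test) and the control group at day 4 was compared with the healthy group, with calls at an adjusted p under 0.05 and a change above 1.5-fold. Fold bounds used a floor of 3 counts over a group. DESeq2 1.42.0, limma 3.58.1 on the deposited FPKM, other scalings and filters, a replicate block and each library left out were alternatives. Named genes were the 15 largest non-overlapping called changes per direction at 10 CPM or more, the 5 smallest p per direction, the 8 most abundant genes, up to 3 called members per list and direction with the list's most abundant gene, and Map1a, Map1b, Tsg101, Cd9, Hspa8, Hspa1a and Canx. Abundance was ranked by mean FPKM over the libraries of both groups. The members and lists were chosen with earlier results of these data known.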

Additional observations from a re-analysis of the deposited data

Results flagged for a closer look

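Transcripts without an annotation were not part of the comparison. With them included in the fit, 3 were called higher and 5 lower in the control group at day 4 than in the healthy group, of 2269 tested (edgeR's quasi-likelihood test with adjusted p).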

How the results depend on the processing

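The number of genes called moved widely: against 116 higher and 28 lower, DESeq2 gave 595 and 244, the fit of only the 2 groups 434 and 129, and an unadjusted p under 0.05 with the 1.5-fold limit kept gave 1222 and 921. Scaling to library totals gave 99 higher and 0 lower. Limma gave 488 and 2 on log2(FPKM + 1), 550 and 3 on log2(FPKM + 0.1), and 83 and 0 on log2(FPKM + 1) with no filter. Calls in the higher direction were then 100% or 99.6% and 99.5% of all calls, against 80.6%. Leaving out 1 library gave 1 to 88 higher and 0 to 15 lower, with fewer samples in the fit; the cause of the other moves was not tested. The replicate block gave 183 higher and 38 lower, and the remaining alternatives stayed within 1.5 times of both counts; rats of the same number deviated from their group means with correlations of -0.034, -0.075 and -0.009, so the numbers were not taken as pairs.

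Of the 103 named genes, 15 turned sign under some alternative, none of them called. Over all called genes, limma kept the sign of 138 of 139 tested on log2(FPKM + 1) and of 143 of 144 with no filter; Hnrnpa2b1 turned. The values under library totals and then limma on log2(FPKM + 1), log2(FPKM + 0.1) and with no filter were 0.87, 1.03, 1.03 and 1.03 for LOC310926, 0.26, 0.43, 0.44 and 0.43 for Snrnp70, 0.45, 0.53, 0.80 and 0.53 for Bcan, 0.13, 0.40, 0.42 and 0.40 for Hsp90ab1, 0.07, 0.24, 0.29 and 0.24 for Hba2, 0.72, 0.80, 0.92 and 0.80 for Cox5b, 0.70, 0.95, 1.01 and 0.95 for Map1a, 0.64, 0.91, 1.00 and 0.91 for Map1b, and 0.41, 0.11, 0.52 and 0.11 for Cd9. In limma alone they were 0.13, 0.21 and 0.13 for Cspg5, 0.01, 0.01 and 0.01 for Nefl, 0.08, 0.11 and 0.08 for Ppp1r1b, and 0.19, 0.37 and 0.19 for Sst, and Hp was at 0.00 with no filter. LOC310926 was at 0.02 in the replicate block. With 1 library left out, the range was -0.26 to 0.08 for LOC310926, -0.24 to 0.04 for Cox5b, -0.19 to 0.09 for Map1a, -0.21 to 0.03 for Map1b, -0.48 to 0.10 for Cd9 and -0.33 to 0.87 for Hspa8.

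Of the 54 named genes that were called, 1 was called in all 6 fits with a library left out, 1 in 5, 36 in 1 to 4 and 16 in 0. With 3 rats a group and 1403190 annotated counts in the shallowest library, genes of a few CPM could not be resolved, and genes that miss the threshold are not shown to be equal.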
